A study of Mus musculus with 12 samples.

Results

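The genes described here are 10 members of the BMP and activin pathway: the ligand genes Bmp4, Bmp7, Bmp8b and Inhba, the receptor genes Bmpr1a, Bmpr1b, Bmpr2 and Acvr1, and the antagonist genes Fst and Grem1. They were chosen by name, with earlier results of these data known, as 10 of 21631 protein-coding genes on chromosomes 1 to 19 and X. Each was taken as its span on GRCm38 with 5 kb added on each side. The measurement was H3K27ac, the acetylation of lysine 27 of histone H3 that marks active promoters and enhancers, profiled by ChIP-seq (sequencing of DNA bound to immunoprecipitated chromatin). Libraries came from adipocyte progenitors of mouse subcutaneous fat, 3 from Azin2-/- cells (replicates 1, 2 and 8) and 3 from wild-type (WT) cells (replicates 1, 2 and 2b). Azin2 encodes antizyme inhibitor 2, which frees ornithine decarboxylase, the first enzyme of polyamine synthesis, from its inhibitor. Cells of both genotypes were expanded for 1 week in high-glucose DMEM (4.5 g/L) with 10% serum. They then had 2 days of an adipogenic mixture of rosiglitazone and dexamethasone (1 µM each), IBMX (0.5 mM) and insulin (5 µg/ml), and 5 more days in which insulin was the sole addition. How the Azin2 allele was made, the strain, sex and age of the mice, and whether cells were pooled are not stated in the labels. Nothing says that libraries of 1 genotype came from separate mice, so the p-values measure only the spread between these libraries, which may be technical.

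Bone morphogenetic proteins and activins are secreted dimers of the TGF-beta superfamily. BMPs bind a complex of type I receptors, such as those encoded by Bmpr1a, Bmpr1b and Acvr1, and type II receptors, such as that encoded by Bmpr2, and the active complex phosphorylates the transcription factors SMAD1, SMAD5 and SMAD9. Activins, which are dimers of inhibin beta chains, use related receptors and SMAD2 and SMAD3. Follistatin, the product of Fst, binds and neutralises activins, and gremlin 1, the product of Grem1, does the same to BMPs. In fat, BMP4 is known for committing mesenchymal precursors to the adipocyte lineage, BMP7 for promoting brown adipocyte differentiation, and BMP8B for raising the thermogenic response of brown fat.

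Each library was a list of 742335 to 1217494 peaks, most of them weak, of which 13843 to 54847 had a deposited q of 0.05 or less. To set the libraries on equal terms, the 30000 strongest peaks of each list by the authors' p were used, and are called main peaks. They covered 28.9, 22.7 and 21.1 Mb in the Azin2-/- libraries, against 16.9, 21.9 and 28.0 Mb in the WT libraries, a difference within the spread (two-sided exact permutation test, p = 0.6, smallest possible 0.1). Sequencing depth is not in the files. The local background under the main peaks, recovered from the deposited fold and p, stands in for it and had medians of 0.269, 0.445 and 1.10 fragments in Azin2-/- replicates 1, 2 and 8, against 0.164, 0.410 and 0.266 fragments in WT replicates 1, 2 and 2b. Azin2-/- replicate 8 thus stands apart in this background, which was not tested as a measure of depth, and Azin2-/- replicate 1 in its 54847 peaks at a q of 0.05 or less. The libraries overlapped little: any pair shared between 0.121 and 0.243 of the length that both covered together. At Azin2 itself the covered length was 945, 893 and 1642 bp in the Azin2-/- libraries, against 1978, 1219 and 2015 bp in the WT libraries (log2 difference -0.44, limma adjusted p = 0.840). Acetylation over the locus does not test whether the gene was deleted, and so does not check the labels.

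Of the 10 genes, 5 had main peaks in all 6 libraries: Bmpr1a, Bmpr1b, Bmpr2, Acvr1 and Fst. In all, 81 main peaks lay at the 10 genes, 36 of them with the summit within 1 kb of an end of the gene span. Merged across libraries they formed 41 regions, of which 29 were held by 1 library and 4 by all 6. Each of the 4 shared regions lay at a gene end of a receptor or of Fst. Set per length, Fst had the densest cover in both genotypes, with 8.94 ± 4.57% of its window covered in Azin2-/- libraries and 24.9 ± 12.1% in WT libraries (SD, n = 3 each). In Azin2-/- libraries the order after Fst was Bmp4 (8.50 ± 4.25%), Bmp8b (8.33 ± 4.80%), Bmp7 (3.55 ± 4.03%), Grem1, Acvr1, Bmpr2, Bmpr1a, Inhba and Bmpr1b (0.425 ± 0.194%). In WT libraries it was Bmp4 (3.61 ± 6.25%), Bmpr1a (2.16 ± 0.83%), Acvr1, Bmpr2, Inhba, Bmpr1b (0.645 ± 0.615%) and Bmp7 (0.442 ± 0.766%), with Bmp8b and Grem1 at 0. Neighbours in these orders differed by less than the larger of their SDs, except Fst and Bmp4 in WT libraries.

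**Figure D1:**
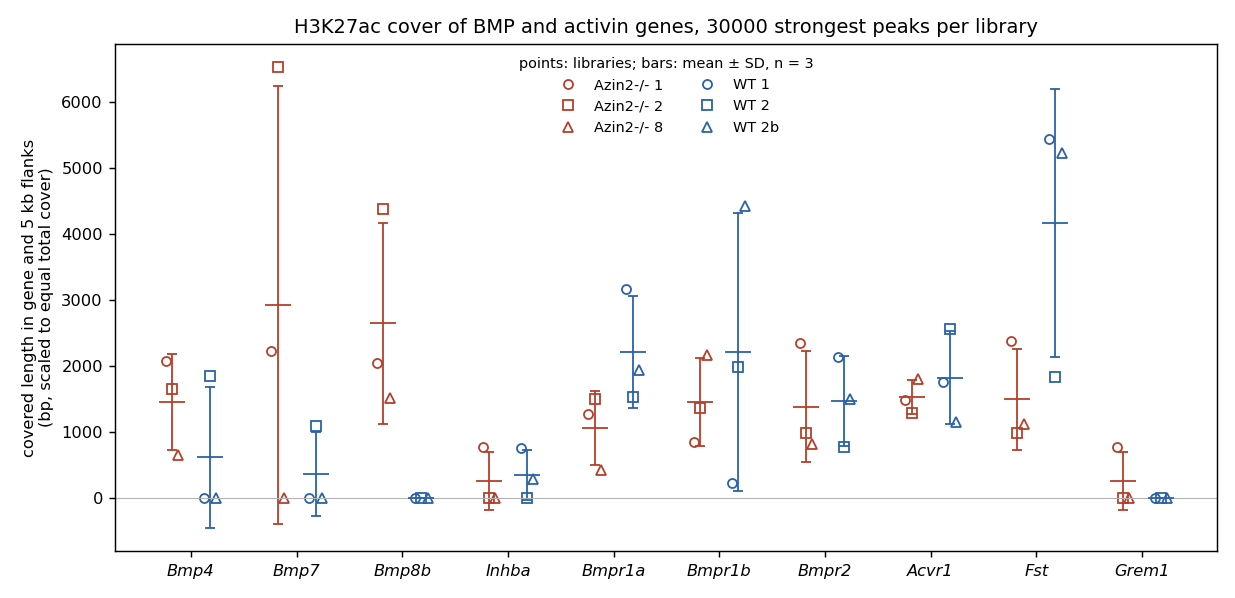
Length covered by main peaks in each gene and its 5 kb flanks, in bp after scaling all libraries to the same total cover. Points are libraries (Azin2-/- left of WT for each gene) and bars are the mean and SD of 3 libraries. The Bmp8b points are at 1523 bp or more in Azin2-/- libraries and at 0 in WT libraries, and the Bmpr1a points do not overlap between genotypes, while the points of the other genes overlap.

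The comparison of genotypes asked whether acetylated length at these genes differs between Azin2-/- and WT cells. Covered length was scaled to equal total cover, 500 bp were added, and the log2 values were tested with limma over the 11670 gene loci (54% of all) with a mean of at least 500 bp. Of these loci 0 (0%) passed an adjusted p of 0.05 (Benjamini-Hochberg) in either direction, and at an unadjusted p under 0.05 there were 506 loci higher in Azin2-/- (4.34%) and 249 lower (2.13%). Of the 10 genes, 8 reached the minimum and none of these 8 passed, with adjusted p-values of 0.743 to 0.975. Grem1 and Inhba fell under the minimum and have no test. At an unadjusted p under 0.05 there was 1 gene higher in Azin2-/-, Bmp8b, and 1 lower, Fst. Libraries of the genotypes did not overlap for Bmp8b (higher in Azin2-/-, as at 6.72% of loci tested) and Bmpr1a (lower in Azin2-/-, as at 4.93%). These differences therefore describe the 6 libraries and are not calls.

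Bmp8b showed the clearest separation among the ligand genes. Its covered length was 2039, 4385 and 1523 bp in Azin2-/- replicates 1, 2 and 8, and it was listed at 0 in all 3 WT libraries. All Azin2-/- libraries were thus above all WT libraries. The fitted log2 difference on the scale with 500 bp added was 2.55 ± 0.52 (SE; limma unadjusted p = 0.000485, adjusted p = 0.743), a size that depends on the added length and is not a fold change or a bound. The main region, chr4:123104277-123106586, covers the annotated start, and the strongest peaks in it carried q-values between 4.83e-12 and 0.00938 in the Azin2-/- libraries. Fragments at the summit of the strongest peak there numbered 10, 6 and 7 in Azin2-/- replicates 1, 2 and 8, over a local background of 0.255, 0.462 and 0.957. In the full WT lists the strongest peaks in the same region had 2 fragments in replicate 1 and 1 fragment each in replicates 2 and 2b, over a background of 0.125, 0.410 and 0.249, with q-values of 0.185, 1 and 1. WT signal at the Bmp8b start was therefore at the level of single fragments and not detectable as a strong peak at this depth, which does not show that it is absent. A main peak reached within 1 kb of a gene end in all 3 Azin2-/- libraries and no WT library at 184 of 21631 genes (0.851%). Of the 10 genes, Bmp8b alone showed this pattern. Leaving out 1 library cannot end such a pattern and raised the share of genes that show it, to between 0.952% and 2.81%. The pattern was also present among the 15000 strongest peaks (0.735% of genes), was lost in the 60000 strongest, where WT replicate 1 also had a peak, and could not be seen in the 5000 strongest, which hold no Bmp8b peak.

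The Bmp8b promoter is printed because peaks over its start were found in the 3 Azin2-/- libraries alone. It lies on the plus strand at chr4:123104911-123105210, with 250 bases before and 50 after the annotated start, and the capitals in this and the other promoters mark CG dinucleotides. Sequences are RefSeq's, on GRCm38.p6.
Bmp8b: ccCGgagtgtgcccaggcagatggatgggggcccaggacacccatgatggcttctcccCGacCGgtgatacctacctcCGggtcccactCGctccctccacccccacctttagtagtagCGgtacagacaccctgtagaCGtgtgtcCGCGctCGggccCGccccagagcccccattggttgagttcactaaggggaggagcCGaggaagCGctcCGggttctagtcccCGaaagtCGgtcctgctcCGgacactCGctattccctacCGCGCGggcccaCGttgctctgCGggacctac
It holds 23 CG dinucleotides, against a median of 13 over 21045 promoters of protein-coding genes, and 29.3% of promoters hold as many or more. The peak of Azin2-/- replicate 1 ran from 871 bp before the start to 666 bp after it, and that of replicate 2 from 749 bp before to 1425 bp after. Replicate 8 had a pair of peaks, the weaker of which (q = 0.0586) covered the start. The Bmp8b window also holds Oxct2b, an intronless gene of ketone body metabolism, and reaches Ppie. Second peaks of Azin2-/- replicates 1 and 2, at chr4:123115998-123116995 and chr4:123116046-123117293, overlie the lower end of Oxct2b, so that part of the Bmp8b cover in these 2 libraries may belong to Oxct2b. In the main region alone the cover was 1236, 2231 and 1523 bp in Azin2-/- replicates 1, 2 and 8 and 0 in each WT library (limma over 22205 regions, log2 difference 3.18, unadjusted p = 0.000957, adjusted p = 0.603). Of all these regions 0 (0%) passed the adjusted threshold in either direction, 899 (4.05%) had an unadjusted p under 0.05 with more cover in Azin2-/-, and 324 (1.46%) with less. The neighbouring paralog Bmp8a, another BMP8 ligand gene, had a main peak at a gene end in all 6 libraries and a log2 difference of 0.45 ± 0.42 (SE, limma adjusted p = 0.849). Reads that match both paralogs could have been assigned to either, and the labels do not say how such reads were treated.

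The loci most like Bmp8b in their cover across the 6 libraries were Sstr1, a somatostatin receptor gene, with Pearson's r = 0.997, Farsa, a subunit gene of phenylalanyl-tRNA synthetase, with r = 0.994, and Kctd21 with r = 0.994. All of them were listed at 0 in the 3 WT libraries. A correlation of 0.9 or more with Bmp8b was found for 130 of 11614 loci (1.12%). These correlations describe 6 libraries in 2 groups and carry no test.

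Bmp4 had 2070, 1651 and 650 bp of cover in Azin2-/- replicates 1, 2 and 8, against 0, 1855 and 0 bp in WT replicates 1, 2 and 2b. WT replicate 2 lay above 2 of the Azin2-/- libraries, so the groups overlap. The log2 difference of 1.14 ± 0.68 (SE) did not pass (limma adjusted p = 0.792). The region that most libraries shared was not the promoter but lay beyond the 3′ end of the gene, at chr14:46380036-46381096, with summits 2662 to 3061 bp from the span. It was held by the 3 Azin2-/- libraries and by WT replicate 2, with 697, 636 and 650 bp in Azin2-/- replicates 1, 2 and 8 against 491 bp in WT replicate 2 and 0 in the other WT libraries. Groups did not overlap in that region (as at 5.22% of regions tested, higher in Azin2-/-), and the test did not pass (limma log2 difference 1.51 ± 0.86, adjusted p = 0.603). A peak inside the gene, with its summit at 3221 bp and 3212 bp from the annotated start, was present in Azin2-/- replicates 1 and 2. The annotated start itself was covered in 1 Azin2-/- library, replicate 1, and in 1 WT library, replicate 2.

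Bmp7 cover varied widely between libraries of 1 genotype. It had 2235, 6530 and 0 bp of cover in Azin2-/- replicates 1, 2 and 8, against 0, 1092 and 0 bp in WT replicates 1, 2 and 2b (log2 difference 1.53 ± 0.88 SE, limma adjusted p = 0.791). Groups overlap at 0. The peak that libraries shared, at chr2:172939693-172941094, had its summit within 12 to 21 bp of the higher-coordinate end of the span and was the strongest Bmp7 peak in each of the 3 libraries that held it. Its summit held 22 and 12 fragments in Azin2-/- replicates 1 and 2, against 13 fragments in WT replicate 2. In Azin2-/- replicate 8 the same place had 21 fragments over a local background of 10.3, with a q of 0.298. In WT replicate 2b it had 7 fragments over 1.51, with a q of 0.0675 and rank 30121, just outside the main peaks. In the 60000 strongest peaks the log2 difference of Bmp7 was 0.06, and over all deposited peaks 0.02. Most of the Bmp7 cover of Azin2-/- replicate 2 came from 3 wide peaks of 4 fragments each with a q of 0.0705, and 206 bp from a narrow one.

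Inhba, which encodes the beta A chain of activin A, had little cover: 773, 0 and 0 bp in Azin2-/- replicates 1, 2 and 8, against 760, 0 and 281 bp in WT replicates 1, 2 and 2b. These came from 3 places held by 1 library each. The Azin2-/- replicate 1 peak (6 fragments, q = 1.31e-05) covered the annotated start, with its summit 79 bp after it. The WT replicate 1 peak (3 fragments, q = 0.0382) lay inside the span, 13889 bp from that start, and the WT replicate 2b peak (3 fragments, q = 0.0634) sat at the lower-coordinate end of the span.

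The receptor genes Bmpr1a, Bmpr2 and Acvr1, with the antagonist gene Fst, shared a pattern of constant presence. These 4 of the 10 genes had a main peak at a gene end, taken as 1 kb on either side of it, in every library, as did 3889 of 21631 genes (18%). Among the 15000 strongest peaks this was seen at Bmpr2 alone (14.2% of genes), and among the 5000 strongest at none of the 10 (3.83%). In the 5000 strongest peaks of the Azin2-/- libraries, Bmpr1a, Acvr1 and Fst had no peak at a gene end and Bmpr2 had one in replicate 1. In the 5000 strongest peaks of the WT libraries the same 4 genes had such a peak in each of 3 libraries (10.4% of genes). A gene-end peak in 0 Azin2-/- and 3 WT libraries of these short lists was thus found for 3 of the 10 genes, against 164 of 21631 genes (0.758%). The 10 genes were chosen with earlier results of these data known, so this contrast is not a test of the set. The opposite pattern, found at 117 genes (0.541%), was shown by none of the 10, and among the 30000 main peaks none had a gene-end peak in 0 Azin2-/- and 3 WT libraries (0.0601% of genes). Leaving out a library can only add genes to this pattern: Bmpr2 joined when Azin2-/- replicate 1 was left out (1.36% of genes). Among the 15000 strongest peaks it was shown by Acvr1 alone (0.106% of genes). For Fst it also rests on the 1 kb limit. Azin2-/- replicate 1 had a peak of rank 4709 that did not reach within 1 kb of the higher-coordinate end, with its summit 1719 bp inside it.

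**Figure D2:**
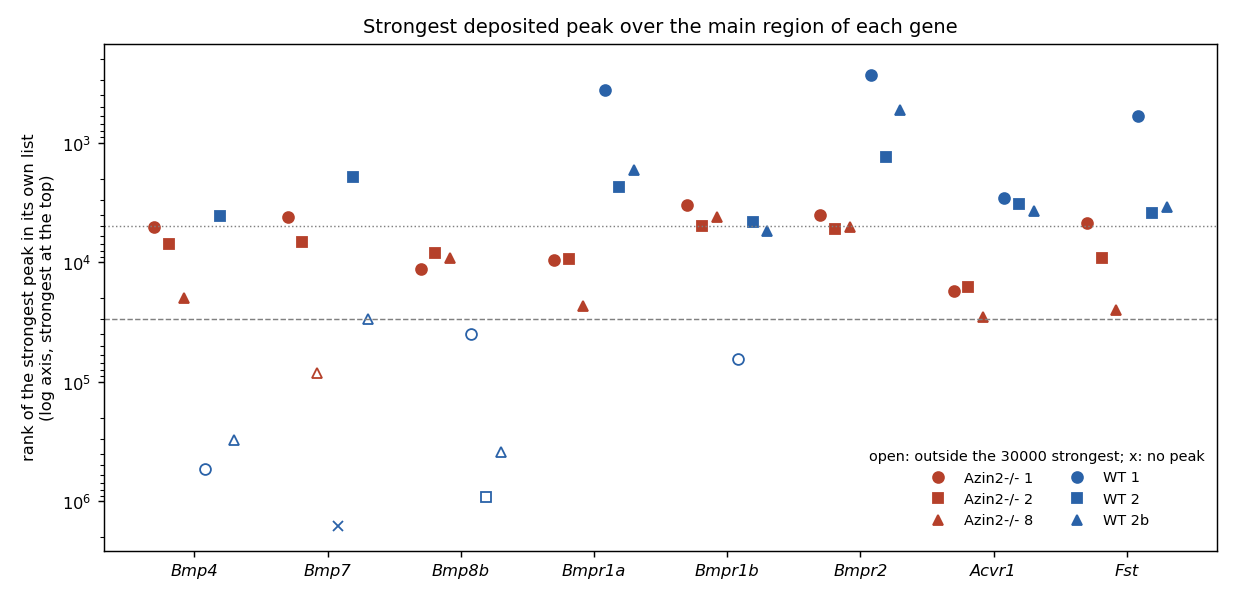
Rank of the strongest deposited peak over the main region of each gene, within the list of its own library, on a log axis with rank 1 towards the top. Azin2-/- libraries stand left of WT libraries, open symbols lie outside the 30000 strongest peaks (dashed line), the dotted line marks the 5000 strongest, and the cross marks a library with no peak. At Bmpr1a, Bmpr2 and Acvr1 the Azin2-/- peaks rank from 4001 to 28608 and the WT peaks from 272 to 3760, whereas at Bmp8b the WT peaks rank from 40158 to 925806. The share of all regions whose ranks separate in this way was not counted.

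Ranks place a peak only within its own list, and lists of different depth and length do not make them comparable as amounts. At Bmpr1a the strongest peak had 12, 6 and 13 fragments over a background of 0.318, 0.562 and 4.04 in Azin2-/- replicates 1, 2 and 8. In WT replicates 1, 2 and 2b it had 13, 11 and 27 fragments over 0.203, 0.433 and 1.21. In the authors' fold this was 9.87, 4.48 and 2.78 in the Azin2-/- libraries and 11.6, 8.37 and 12.7 in the WT libraries. The peak of Azin2-/- replicate 1 had a smaller q (4.39e-14) than that of WT replicate 2 (4.12e-10) although it ranked lower, at 9665 against 2368 in WT replicate 2. The list of Azin2-/- replicate 1 holds 54847 peaks at a q of 0.05 or less and that of WT replicate 2 holds 16587.

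Bmpr1a encodes BMPR1A (ALK3), the type I receptor that mediates much of BMP signalling in mesenchymal cells. Its covered length was 1269, 1498 and 426 bp in Azin2-/- replicates 1, 2 and 8, against 3161, 1530 and 1944 bp in WT replicates 1, 2 and 2b. Every Azin2-/- library was below every WT library and the nearest pair was 1498 bp in Azin2-/- replicate 2 and 1530 bp in WT replicate 2. The log2 difference was -0.82 ± 0.42 (SE; limma unadjusted p = 0.0788, adjusted p = 0.778), and it lay between -1.04 and -0.49 when single libraries were left out. Its promoter, on the minus strand at chr14:34502497-34502796, is shown because 5 libraries had a peak over the start, 2 Azin2-/- and 3 WT.
Bmpr1a: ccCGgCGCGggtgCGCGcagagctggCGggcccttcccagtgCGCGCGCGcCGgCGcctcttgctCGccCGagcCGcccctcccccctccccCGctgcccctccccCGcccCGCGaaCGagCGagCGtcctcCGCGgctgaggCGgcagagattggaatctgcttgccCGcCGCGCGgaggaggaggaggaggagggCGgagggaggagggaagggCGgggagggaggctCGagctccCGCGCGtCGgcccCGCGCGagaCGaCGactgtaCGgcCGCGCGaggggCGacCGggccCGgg
In the region of this start, chr14:34501467-34503616, the libraries of the genotypes did not overlap either (lower in Azin2-/-, as at 2.62% of regions tested; log2 difference -0.82, limma adjusted p = 0.603). With every peak replaced by 250 bp on each side of its summit, the difference was 0 in this region and -0.39 at the locus, and in the 5000 strongest peaks it was -3.30 and -2.18 (adjusted p = 0.205 and 0.189). With 48 CG dinucleotides the promoter is among the 1.53% of promoters that hold as many or more. The library without a peak over the start was Azin2-/- replicate 8, whose narrow peak of 387 bp (q = 0.0603) ended 220 bp before it. In the other 5 libraries the peaks began 806 to 1070 bp before the start and ended 389 to 1079 bp after it.

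Acvr1 encodes ACVR1 (ALK2), a type I receptor used by BMP6 and BMP7. It had 1482, 1291 and 1808 bp of cover in Azin2-/- replicates 1, 2 and 8, against 1753, 2556 and 1155 bp in WT replicates 1, 2 and 2b. The WT libraries spread more widely, around the range of the Azin2-/- libraries, and the log2 difference was -0.16 ± 0.37 (SE, limma adjusted p = 0.940). It was larger over stronger peaks, at -2.19 in the 15000 strongest and -2.06 in the 5000 strongest, without passing (adjusted p = 0.369 and 0.197). All 6 libraries had a main peak over the annotated start, in region chr2:58565698-58568108. That peak had 7, 5 and 10 fragments in Azin2-/- replicates 1, 2 and 8, with q-values of 7.82e-06, 0.0146 and 0.0977, against 5, 10 and 14 fragments in WT replicates 1, 2 and 2b, with q-values between 1.15e-11 and 2.74e-05. In Azin2-/- replicate 8 it is therefore a weak peak that would not pass a q of 0.05. The start region overlaps the span of Upp2, a uridine phosphorylase gene, and acetylation there cannot be assigned to 1 of the 2 genes. The promoter lies on the minus strand at chr2:58566779-58567078 and is shown as the one that every library covered.
Acvr1: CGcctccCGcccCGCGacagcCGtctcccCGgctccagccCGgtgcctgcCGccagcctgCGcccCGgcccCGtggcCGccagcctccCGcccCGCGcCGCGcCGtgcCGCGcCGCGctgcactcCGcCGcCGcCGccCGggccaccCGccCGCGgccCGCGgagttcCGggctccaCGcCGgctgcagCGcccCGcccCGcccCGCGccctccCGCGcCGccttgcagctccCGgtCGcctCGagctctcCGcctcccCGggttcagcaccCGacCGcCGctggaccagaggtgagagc
It is the richest in CG dinucleotides of the promoters printed here, with 51, a number that 0.908% of promoters reach.

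Bmpr2 encodes the main type II BMP receptor. Its cover was 2355, 978 and 822 bp in Azin2-/- replicates 1, 2 and 8, against 2132, 766 and 1499 bp in WT replicates 1, 2 and 2b, with groups that overlap and a log2 difference of -0.09 ± 0.45 (SE, limma adjusted p = 0.975). The peak before its start had ranks 4001, 5321 and 5085 in Azin2-/- replicates 1, 2 and 8, against 272, 1332 and 534 in WT replicates 1, 2 and 2b, and in each WT library it was the best ranked peak at any of the 10 genes. It had 20, 8 and 22 fragments at the summit in Azin2-/- replicates 1, 2 and 8, over a background of 0.538, 0.589 and 6.28. In WT replicates 1, 2 and 2b it had 15, 16 and 40 fragments, over a background of 0.251, 0.813 and 1.06. The authors' fold was 13.7, 5.66 and 3.16 in Azin2-/- replicates 1, 2 and 8, against 12.8, 9.38 and 19.9 in WT replicates 1, 2 and 2b. The groups thus overlap in fold although they do not in rank. All 6 summits lay 491 to 590 bp before the annotated start. Only the peak of Azin2-/- replicate 1 covered the start, and the other 5 ended 48 to 254 bp before it. The Bmpr2 promoter, on the plus strand at chr1:59764029-59764328, is printed for this contrast and was added after these values were seen.
Bmpr2: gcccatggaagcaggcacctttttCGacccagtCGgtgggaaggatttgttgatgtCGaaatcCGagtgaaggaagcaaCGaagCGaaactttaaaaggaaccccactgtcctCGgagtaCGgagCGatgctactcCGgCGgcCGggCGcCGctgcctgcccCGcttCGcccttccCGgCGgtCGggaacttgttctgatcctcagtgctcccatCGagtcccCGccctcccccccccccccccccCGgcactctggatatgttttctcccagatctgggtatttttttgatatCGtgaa
It holds 23 CG dinucleotides, the same number as the Bmp8b promoter.

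Bmpr1b encodes the type I receptor BMPR1B (ALK6). It had 842, 1365 and 2162 bp in Azin2-/- replicates 1, 2 and 8, against 222, 1988 and 4418 bp in WT replicates 1, 2 and 2b (log2 difference -0.14 ± 0.62 SE, limma adjusted p = 0.971). WT libraries included both the lowest and the highest value, so no direction can be given, and the sign of the difference turned with the settings. The shared peak, at chr3:142168259-142169859, lay at the higher-coordinate end of the span, with summits 443 to 565 bp inside it. The promoter entries are on the minus strand, so this is the 5′ end of the span. The 3 annotated starts in the promoter table lie inside the gene, 186756 bp or more from these summits. It was held by the 3 Azin2-/- libraries and by WT replicates 2 and 2b. Bmpr1b was the one gene of the 10 with a gene-end peak among the 5000 strongest peaks of all 3 Azin2-/- libraries (7.83% of genes), where ranks were 3339, 4985 and 4214 in replicates 1, 2 and 8. In the WT libraries that peak had rank 4634 in replicate 2 and 5450 in replicate 2b, and a peak of 3 fragments at rank 64197 in replicate 1. Summit fragments numbered 22, 8 and 16 in Azin2-/- replicates 1, 2 and 8, against 3, 8 and 9 in WT replicates 1, 2 and 2b. The covered length of WT replicate 2b came from 7 peaks, 6 of them spread through the long gene. The window also reaches the end of Unc5c, a netrin receptor gene.

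**Figure D3:**
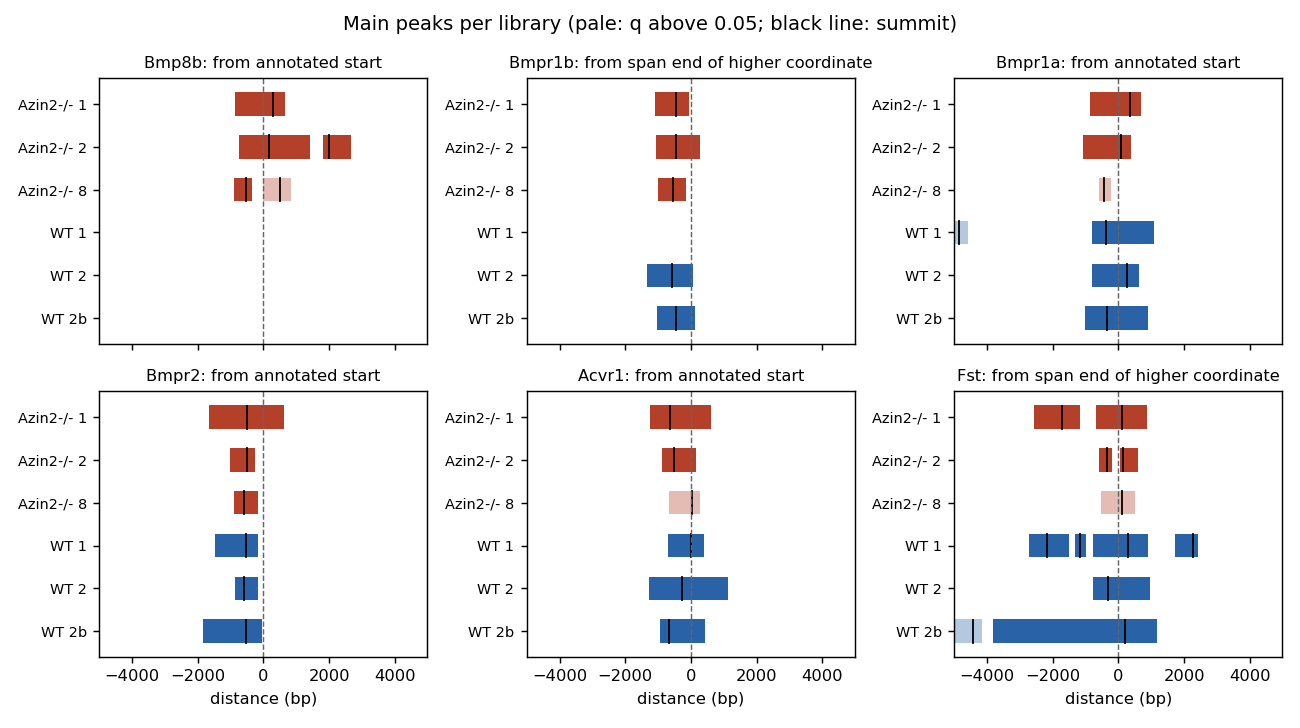
Main peaks of each library around the annotated start (Bmp8b, Bmpr1a, Bmpr2, Acvr1, drawn in the direction of transcription) or the higher-coordinate end of the gene span (Bmpr1b, Fst), in bp, with Azin2-/- rows above WT rows. Pale bars have a deposited q above 0.05, black lines are summits, and peaks are drawn to 5000 bp on each side. At Bmpr2 the summits of all 6 libraries lie 491 to 590 bp before the start, and at Bmp8b no WT library has a peak.

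Fst, the activin antagonist, had 2375, 988 and 1124 bp of cover in Azin2-/- replicates 1, 2 and 8, against 5439, 1833 and 5232 bp in WT replicates 1, 2 and 2b. WT replicates 1 and 2b were high, and WT replicate 2 lay below Azin2-/- replicate 1, so the groups overlap. Means were 1496 ± 765 bp in Azin2-/- libraries and 4168 ± 2025 bp in WT libraries (SD, n = 3 each). The log2 difference was -1.17 ± 0.44 (SE; limma unadjusted p = 0.0231, adjusted p = 0.743), with values from -1.62 to -0.95 when single libraries were left out. The region at the higher-coordinate end, chr13:114455162-114460171, gave -1.12 ± 0.32 (SE; limma unadjusted p = 0.00353, adjusted p = 0.603). Peaks also differed in width and number: Azin2-/- replicate 8 had 1 peak of 1022 bp (q = 0.0731), whereas WT replicate 2b had a single peak of 5010 bp there and WT replicate 1 had 4 peaks at Fst. With every peak replaced by 250 bp on each side of its summit, the region's difference became 0.25 and that of the locus -0.25. At the summit, fragments of the strongest peak numbered 18, 6 and 8 in Azin2-/- replicates 1, 2 and 8, against 12, 9 and 11 in WT replicates 1, 2 and 2b, so that the groups overlap in height as well.

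Grem1, the BMP antagonist, had main cover in 1 library: 765, 0 and 0 bp in Azin2-/- replicates 1, 2 and 8, against 0 in each WT library. The peak of Azin2-/- replicate 1 covered the annotated start, with its summit 116 bp before it, 11 fragments and a q of 2.39e-13. In the other libraries the strongest deposited peak in that region had 2 and 6 fragments in Azin2-/- replicates 2 and 8 and 1 fragment in each WT library, with q-values of 0.712 or more. Azin2-/- replicate 1 is also the library with the most peaks at a q of 0.05 or less, and the part of depth in this difference was not tested.

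The promoter table holds 8 of the 10 genes. Ordered by the number of libraries with a peak over an annotated start, Acvr1 came first with 6 and Bmpr1a second with 5, and these are also the promoters with the most CG dinucleotides. Bmp8b (23 CG dinucleotides) followed with 3 libraries and Bmp4 (12) with 2. Bmpr2 (23), Grem1 (28) and Inhba (7) had 1 library each and the 3 Bmpr1b starts (5 or 6) had none. This order depends on counting the start base alone. Over the 300 bases of the promoter, Bmpr1a had a peak in 6 libraries and Bmpr2 in 5. The Bmpr1b starts are internal, and the 5′ end of its span had a main peak in 5 libraries. A link of CG number to peaks was not tested. The Inhba promoter, on the plus strand at chr13:16011601-16011900, is printed as a CG-poor contrast and was also added after the values were seen.
Inhba: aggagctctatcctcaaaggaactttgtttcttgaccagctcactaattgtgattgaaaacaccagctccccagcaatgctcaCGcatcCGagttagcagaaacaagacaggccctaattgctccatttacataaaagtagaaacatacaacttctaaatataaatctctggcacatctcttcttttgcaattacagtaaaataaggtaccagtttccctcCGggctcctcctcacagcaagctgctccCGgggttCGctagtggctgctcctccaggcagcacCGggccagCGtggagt
It holds 7 CG dinucleotides, a number reached by 64.9% of promoters. Searched on both strands, the motif GGCGCC, the palindrome known to bind SMAD1 and SMAD5, was found in the promoters of Bmpr1a, Bmpr2 and Grem1, once in each, and in 15.5% of all promoters. The motif CAGAC, part of the SMAD3 and SMAD4 binding element, was found in those of Bmp8b and Grem1 and in 2 of the 3 Bmpr1b promoters, and in 48.3% of all promoters. The AP-1 motif TGANTCA was in none of the 10 promoters of the set and in 7.04% of all. These are matches of letters in a window of 300 bases.

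No call was made among the other genes of the pathway. Of 58 further genes listed by class, 48 reached the minimum cover, and 0 passed the adjusted threshold in either direction, as over all loci. Their median log2 difference was -0.11, against 0.07 over all 11670 loci tested, with 19 above 0 and 29 below. By class, 11 of 19 other ligand genes were tested (median 0.01), 9 of 9 other receptor and co-receptor genes (median 0.34), 11 of 13 other antagonists and modulators (median -0.02), 8 of 8 SMAD genes and regulators (median -0.20) and 9 of 9 target genes (median -0.43). A main peak at a gene end in all 6 libraries was present at 23 of the 58, against 18% of all genes. The smallest p-values with more cover in Azin2-/- were those of Eng, the co-receptor endoglin, with 3015, 3673 and 942 bp in Azin2-/- replicates 1, 2 and 8 against 0, 1749 and 0 bp in WT replicates 1, 2 and 2b (log2 difference 1.74, limma adjusted p = 0.743), and of the ligand gene Gdf6 (1.09, adjusted p = 0.793). Those with less cover were of Id4, an inhibitor-of-DNA-binding gene, with 1586, 599 and 0 bp in Azin2-/- replicates 1, 2 and 8 against 2296, 1660 and 1486 bp in WT replicates 1, 2 and 2b (log2 difference -1.13, adjusted p = 0.772), and of the antagonist gene Nbl1 (-0.73, adjusted p = 0.782). Eng was the 1 gene of the 48 with an unadjusted p under 0.05 (0.0225).

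**Figure D4:**
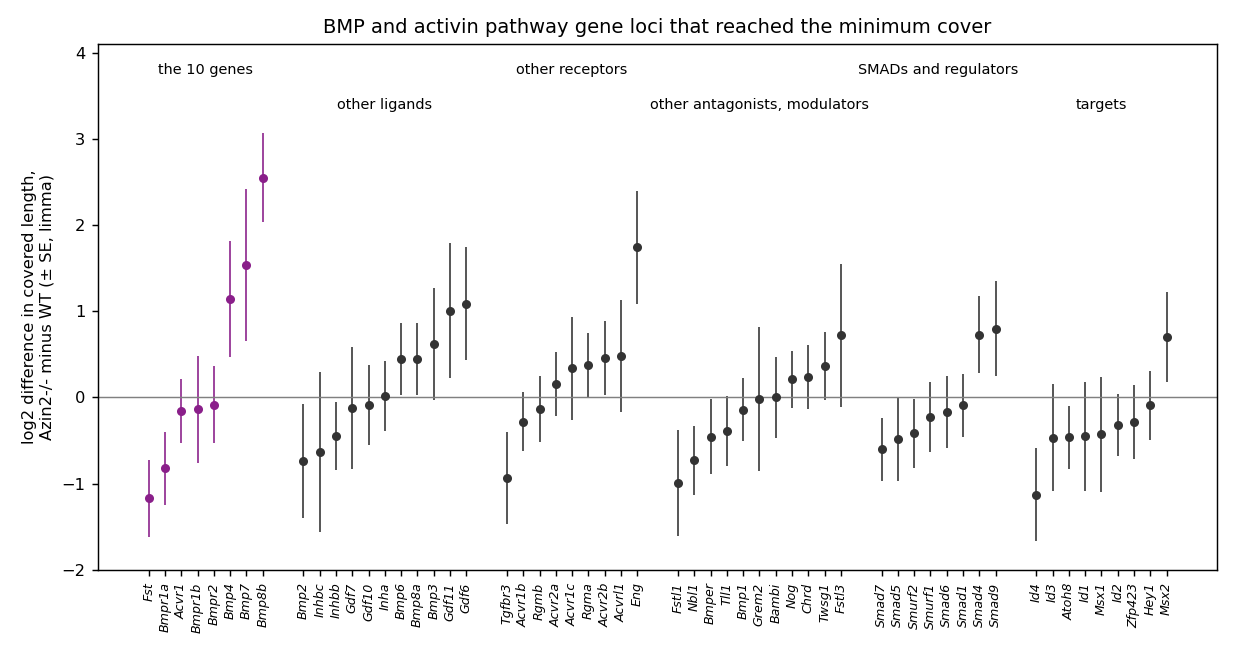
Log2 difference in covered length, Azin2-/- minus WT, with its standard error from limma, for the 8 tested genes of the set (purple) and 48 other pathway genes (black) by class. Bmp8b stands highest at 2.55 and Fst lowest at -1.17, and none of the points passed the adjusted threshold.

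Summed cover of 2 marker lists separated the genotypes and stands beside all of these differences, although 0 of the markers tested passed the adjusted threshold. The 10 adipocyte progenitor markers had a summed cover of 3584 to 7075 bp in Azin2-/- libraries, with 4 or 5 of 10 covered per library, against 7486 to 14944 bp in WT libraries, with 6 to 8 covered. Pdgfra, the receptor that defines these cells, was covered in all 6 libraries. The separation of the summed cover was narrow, with 7075 bp in Azin2-/- replicate 1 against 7486 bp in WT replicate 2. It rested on more than 1 marker, among them Col1a1, Thy1 and Pi16. Of the progenitor markers tested, the genotypes did not overlap at Col1a1 alone, with 0, 541 and 0 bp in Azin2-/- replicates 1, 2 and 8. In WT replicates 1, 2 and 2b Col1a1 had 3468, 1201 and 1039 bp (log2 difference -1.77, limma unadjusted p = 0.0115, adjusted p = 0.743). Of the 8 progenitor markers tested, 6 had a log2 difference below 0 and 2 above. Dcn was at 0 in the 3 Azin2-/- libraries and in WT replicate 2, and Ly6a was at 0 in all but WT replicate 2b. Dlk1, of the same list, went the other way, with 2032, 2119 and 722 bp in Azin2-/- replicates 1, 2 and 8 against 0, 1104 and 0 bp in WT replicates 1, 2 and 2b (log2 difference 1.45, limma unadjusted p = 0.0386, adjusted p = 0.758). The 5 skeletal muscle markers had 5539 to 6453 bp in Azin2-/- libraries against 877 to 3708 bp in WT libraries, with Myog at 0 in all 6 and Myod1 covered in the 3 Azin2-/- libraries alone. Summed cover of the 7 endothelial markers was 3317 to 5898 bp in Azin2-/- libraries against 827 to 4211 bp in WT libraries, and that of the 4 Schwann cell markers was 1193 to 2111 bp in Azin2-/- libraries against 0 to 1248 bp in WT libraries. These last 2 lists overlapped between genotypes, as did those of adipocytes, brown adipocytes, macrophages and leukocytes, smooth muscle and pericytes, mesothelium and epithelium. Adipoq, the adipocyte marker, and Ucp1 and Dio2, those of brown fat, had no cover in any library. In such bulk chromatin, fewer cells carrying the mark and less of it per cell cannot be told apart, and the part of cell composition in the values at Bmp8b, Bmpr1a and Fst was not tested.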

How the data were processed

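The deposited files analysed here were 6 peak lists, 1 per H3K27ac library; the 6 input libraries were not analysed here. Coordinates are on GRCm38 (mm10), per the submitters' processing notes. The aligner, peak caller and control were not given in the sources used here. Per peak, each list deposited by the authors holds a score, the summit's fold ratio over its surroundings, p-values and q-values as −log10, and where the summit lies. The authors' fold, p and q were used within a list only, for ranking, filtering and description. Fold and p together give a whole number of fragments at the summit, if the fold has a pseudocount of 1; of a sample of main peaks, 99.97 to 100% were whole within 0.001 on the log10 scale.

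Main peaks were the 30000 of smallest p on chromosomes 1 to 19 and X, ties broken by fold and position. Their covered length in a gene span and its 5 kb flanks was scaled so that all libraries had the same total, 500 bp were added and the log2 taken, for loci with a mean of at least 500 bp. Regions were main peaks merged across libraries by 1 bp of overlap, with 200 bp added and a minimum mean of 200 bp. Both were tested with limma 3.58.1 in R 4.3.3 (eBayes with a mean trend, Benjamini-Hochberg adjustment at 0.05), with libraries as samples and no covariates. The procedure was tested on simulated normal values of equal spread, which does not show how it behaves where libraries are at 0. A gene-end peak overlaps the 1 kb on either side of an end of the span, wherever its summit lies. Starts come from RefSeq promoters on GRCm38.p6.

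The 10 genes and all lists were chosen with earlier results of these data known. Named besides them were regions held by at least 3 libraries or, failing that, by most, promoters whose start was covered in at least 3 libraries, the 3 loci most correlated with the member of smallest p, and the 2 pathway genes of smallest p in each direction. Alternatives varied list length, strength, window, peak width, added length, minimum and scaling, the replicate block and each library; leaving libraries out of the gene-end counts, which can add genes to a pattern but remove none, was added after seeing the data.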

Additional observations from a re-analysis of the deposited data

How the results depend on the processing

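With 3 libraries per genotype, read depth unknown and median summits of 3 to 8 fragments, small differences could not be detected. A large one did not pass in the main fit either: the log2 difference of 2.55 at Bmp8b had a limma adjusted p of 0.743. Single libraries left out gave 0 calls in every such fit, 0 to 0 for gene loci and for regions in both directions. Calls over all loci appeared under other settings: at a q of 0.01 or less, 22 gene loci higher and 4 lower in Azin2-/-; with every peak reduced to 250 bp either side of its summit (fixed windows), 41 and 16 gene loci and 528 and 39 regions; in the 60000 strongest peaks, 13 and 37 regions; with no minimum, 16 and 46 regions. At a q of 0.01 and of 0.05 or less, 3 and 1 regions were lower. Among the 10 genes, these settings called Bmp8b with fixed windows (log2 difference 1.72, limma adjusted p = 0.0159, and in its region 1.81, limma adjusted p = 5.74e-06), which restates presence against absence. They also called the Fst region in the 60000 strongest peaks (-1.08, limma adjusted p = 0.0016) and with no minimum (-1.12, limma adjusted p = 1.19e-06). In those fits of the Fst region limma took each region's variance from the trend with mean cover alone. The Fst region became 0.25 with fixed windows, and the cause was not tested.

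Directions turned for 4 genes, none of them called. Bmpr1b was 1.01 in the 5000 strongest peaks, 0.23 in the 60000, 0.047 at a q of 0.05 or less, 0.013 with 100 bp added and 0.20 with WT replicates 2 and 2b averaged. Bmpr2 was 0.20 with fixed windows and 0.036 unscaled, Acvr1 0.064 with 20 kb flanks and 0.20 with fixed windows, and Bmp4 -0.015 over all deposited peaks. Leaving out single libraries gave -0.90 to 0.48 for Bmpr1b, -0.42 to 0.16 for Bmpr2, -0.38 to 0.063 for Acvr1 and -0.19 to 1.36 for the Bmpr1b region. Bmp8b, Bmpr1a, Bmp7 and Fst loci kept their direction in every fit that gave them a value, but not their size: Bmp8b lay between 0.65 (all deposited peaks) and 4.64, Bmp7 between 0.02 (all deposited peaks) and 2.59, Bmpr1a between -2.18 and -0.39 and Fst between -2.02 and -0.25. Acvr1, -0.16 in the main lists, was -2.19 in the 15000 strongest peaks, -2.06 in the 5000, -1.86 at a q of 0.01 or less and -1.04 at 0.05 or less.

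Whether the replicate numbers pair the libraries is not stated. Same-numbered libraries had correlations of their deviations of -0.04 (number 1) and 0.12 (number 2). The second was the highest of any pair, and pairs of unlike number lay between -0.09 and 0.08. So few values cannot decide whether libraries were paired. With the number as a replicate block, 11 gene loci were higher and 1 lower, and 12 regions were higher and 27 lower. These fits used 4 libraries, with variances taken from the trend with mean cover alone. Bmpr1b then gave 0.23, Bmpr2 0.17 and the Bmpr2 region 0.032, and no locus or region of the 10 genes was called. Bmp7, at 2.28, and Bmp8b, at 2.78, came near the threshold (limma adjusted p = 0.0571 and 0.0859).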
